A study of Sus scrofa with 22 samples.

Results

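The genes described are 36 genes of antioxidant defence, iron storage and traffic, and the breakdown of heme to bilirubin, chosen by their symbols. Of the 36, 32 were matched to 1 of the 31907 Ensembl rows that were counted, and 31 had enough counts to be tested among 14994 genes. TXN, GPX1, GSTP1 and FTH1 were not matched to a row and are not analysed here. The row matched to HMOX1 held 0 counts in all 22 libraries.

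The tissue was the cerebellum, which fine-tunes posture and movement, of piglets operated at the age of 8 days and followed for 3 weeks. Bile duct ligation (BDL), in which the duct that drains bile from the liver is tied off, was done in 11 animals (7 female, 4 male). Sham surgery (SHAM) was done in the other 11 animals (5 female, 6 male). Each library was made from total RNA of 1 animal, and all animals of both groups had surgery, so no unoperated group entered the comparison. The labels name no strain, no allele and no drug.

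When bile cannot leave the liver, bilirubin and bile acids build up in the blood. Bilirubin is the end product of heme: a heme oxygenase opens the heme ring and releases iron, carbon monoxide and biliverdin, and a biliverdin reductase turns biliverdin into bilirubin. The freed iron is held in ferritin, and cells under oxidative stress release the transcription factor NRF2 (gene NFE2L2) from its inhibitor KEAP1, after which NRF2 switches on enzymes that make glutathione, recycle thioredoxin and detoxify quinones. In the brain much of the glutathione system is carried by astrocytes, and oligodendrocytes and microglia are rich in iron and ferritin.

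Libraries held between 14811464 and 20046909 counts in genes. The defining markers of cerebellar neurons were present in every library, with 8 of 8 tested and a summed level of 3190 to 3940 CPM (counts scaled to the same library size) in BDL and 3220 to 3710 in SHAM animals. Myelin markers differed more between animals, from 4960 to 28200 CPM in BDL and from 7090 to 24700 in SHAM animals (7 of 8 markers tested). Blood cell markers summed to 4.8 to 19.3 CPM in BDL and 2.26 to 18.4 in SHAM animals (3 of 9 tested, HBB among them), and choroid plexus and ependyma markers to 93 to 1570 and 79 to 996 CPM (5 of 7 tested). Microglia and macrophage markers summed to 124 to 265 and 124 to 269 CPM (8 of 8 tested). Astrocyte and Bergmann glia markers summed to 3710 to 6890 and 4770 to 7510 CPM (6 of 7 tested). Endothelial markers summed to 154 to 249 and 177 to 228 CPM (6 of 6 tested), and the liver list, which shares TTR with the choroid plexus list, to 106 to 1580 and 109 to 975 CPM (4 of 6 tested). These sums cover every marker matched to a row, tested or not, which were 7 for blood cells, 6 for choroid plexus and ependyma and 6 for liver. The marker scores used below rest on the tested markers only. In bulk tissue, fewer cells of a type and less RNA per cell cannot be told apart.

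The comparison of BDL with SHAM asks whether transcripts of these pathways differ in the cerebellum after the bile duct is closed in young piglets. None of the 31 tested members passed the test (edgeR's quasi-likelihood test with sex as a term, Benjamini-Hochberg adjusted p under 0.05), where 0% of all 14994 genes passed. None of the 31 had an unadjusted p under 0.05 either, a mark that 4.96% of all genes reached. Higher in BDL by point estimate were 21 members and on the lower side 10, and of all genes 50.3% were on the higher side. The median log2 fold change was 0.035 over the members and 0.00061 over all genes. The 95% confidence interval lay inside a 1.25-fold change in either direction for 27 of the 31 members, and for 63.6% of all genes. All genes were not matched to the members by level, on which the width of an interval depends, so these shares are not like for like. The 4 members with wider intervals were GSTM3, SLC7A11, OSGIN1 and MT3. The adjusted p-values of the members ran from 0.881 to 0.993.

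**Figure D1:**
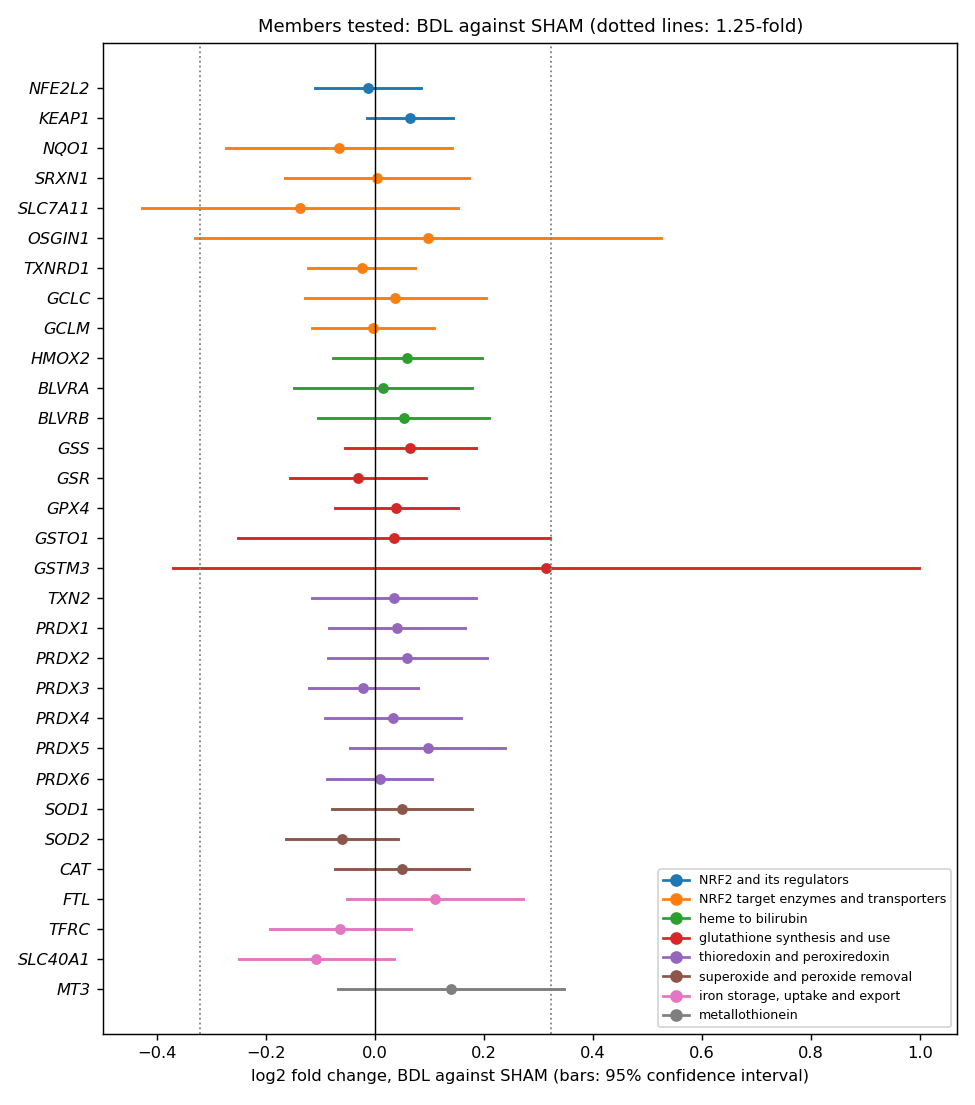
Log2 fold change of BDL against SHAM (horizontal axis) for the 31 tested members, coloured by role, with 95% confidence intervals as bars and dotted lines at a 1.25-fold change. Every interval crosses 0, and those of GSTM3, SLC7A11, OSGIN1 and MT3 reach past a dotted line.

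NRF2 and its inhibitor were measured with little spread between animals. NFE2L2, which encodes NRF2, ran from 73.2 to 87.9 CPM in BDL animals (median 80.3) and from 74.0 to 93.0 in SHAM animals (median 80.97). The groups overlapped over nearly their whole range, and the log2 fold change was -0.014 ± 0.047 (SE; edgeR adjusted p = 0.973). KEAP1, the adaptor that marks NRF2 for degradation, ran from 91.1 to 105 CPM in BDL (median 96.5) and from 80.2 to 98.3 in SHAM animals (median 95.2). Of 11 BDL animals, 10 lay above the mean of SHAM, but the groups overlapped and the log2 fold change was 0.064 ± 0.038 (edgeR adjusted p = 0.881). This was the smallest unadjusted p of any member, at 0.109. KEAP1 also had the smallest spread of any tested member once sex and surgery were taken out, with an SD of 0.073 on the log2 scale. The median over all genes, which were not matched to KEAP1 by level, was 0.197.

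The NRF2 target genes did not lean in 1 direction. Of the 7 tested, 3 were on the higher and 4 on the lower side in BDL (median log2 fold change -0.0038). NQO1, the quinone reductase often used as a readout of NRF2, ran from 14.6 to 24.4 CPM in BDL (median 18.6) and from 14.7 to 23.0 in SHAM animals (median 19.0). Its log2 fold change was -0.066 ± 0.10 (edgeR adjusted p = 0.933), and the 2 groups covered the same range. SLC7A11, the cystine importer that feeds glutathione synthesis, ran from 15.2 to 38.9 CPM in BDL (median 26.6) and from 25.3 to 38.3 in SHAM animals (median 29.2). The highest values were alike in both groups, while 5 BDL animals lay below every SHAM animal, and the log2 fold change was -0.14 ± 0.14 (edgeR adjusted p = 0.901). TXNRD1, the thioredoxin reductase of the cytosol, ran from 62.3 to 76.7 CPM in BDL (median 68.3) and from 64.3 to 79.3 in SHAM animals (median 67.8), with a log2 fold change of -0.025 ± 0.048 (edgeR adjusted p = 0.946).

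The remaining targets did not pass either. GCLC and GCLM, the catalytic and modifier subunits of the enzyme that limits glutathione synthesis, had log2 fold changes of 0.037 ± 0.081 and -0.0038 ± 0.054. SRXN1, sulfiredoxin, which repairs overoxidised peroxiredoxins, was at 0.0033 ± 0.082. OSGIN1, an oxidative stress-induced growth inhibitor, had 7 to 28 counts per library, or 0.407 to 1.504 CPM in BDL and 0.665 to 1.23 in SHAM animals. Its log2 fold change was 0.097 ± 0.21 (edgeR adjusted p = 0.953), with an interval from -0.33 to 0.53, and 0.0055 without BDL replicate 5.

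**Figure D2:**
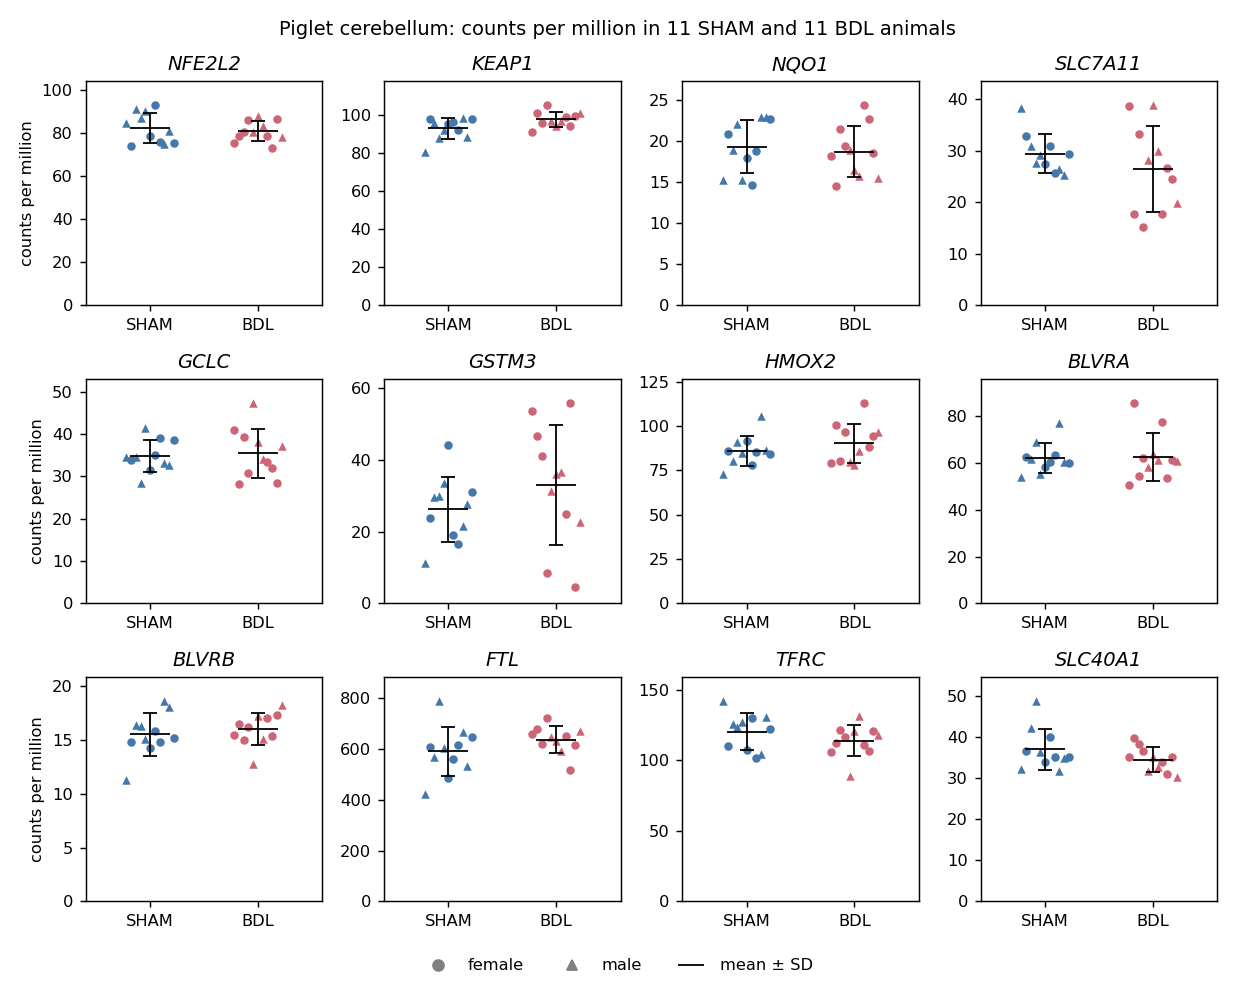
CPM (vertical axes, starting at 0) of 12 members in each of 11 SHAM and 11 BDL animals, females as circles and males as triangles, with the mean ± SD. SHAM and BDL animals overlap in every panel. GSTM3, SLC7A11, BLVRA, TFRC and SLC40A1 are among the panels with BDL animals below the whole SHAM range.

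The 3 tested genes of the path from heme to bilirubin lay on the higher side in BDL by small amounts, none of them passing. By sex, the log2 fold change of BDL against SHAM was positive for all 3 in females (0.062 to 0.133). In males it was negative for all 3 (-0.0452 to -0.0151). The difference between the sexes did not pass for any of them (smallest unadjusted p = 0.224, lowest edgeR adjusted p = 0.917). Of all 31 tested members, 23 were on the higher side in females and 14 in males. HMOX1, the inducible heme oxygenase, had 0 counts in the 22 libraries together, and a count of 0 allows up to 0.00781 CPM over the pooled libraries (3 counts, counting error only). The RefSeq gene table for Sscrofa11.1 places HMOX1 on no named chromosome, and whether reads of HMOX1 were counted elsewhere was not tested, so the 0 is a property of this row and no level of HMOX1 is given. HMOX2, the constitutive heme oxygenase of neurons (chromosome 3, 37829044 to 37868163), ran from 78.0 to 113 CPM in BDL (median 88.5) and from 73.0 to 106 in SHAM animals (median 85.2). The groups overlapped, with a log2 fold change of 0.059 ± 0.066 (edgeR adjusted p = 0.913), and 0.028 without BDL replicate 8.

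The biliverdin reductases differed as little. BLVRA, the reductase that makes the adult form of bilirubin, ran from 50.4 to 85.5 CPM in BDL (median 61.2) and from 54.1 to 77.1 in SHAM animals (median 60.5). The highest and the lowest values both belonged to BDL animals, and the log2 fold change was 0.014 ± 0.079 (edgeR adjusted p = 0.985). BLVRB, the second reductase, which is abundant in red blood cells, ran from 12.7 to 18.2 CPM in BDL (median 16.2) and from 11.3 to 18.6 in SHAM animals (median 15.2), with a log2 fold change of 0.052 ± 0.076 (edgeR adjusted p = 0.931). Across the 22 animals, BLVRB had a Pearson r of 0.184 (permutation p = 0.417, adjusted p = 0.804) and a Spearman rho of 0.0582 (p = 0.798, adjusted p = 0.979) with the blood cell marker score, the mean log2 CPM of its markers. Without the 2 animals farthest from the median score, r was 0.183. That score was 1.19 ± 0.665 (SD, n = 11) after BDL and 0.623 ± 0.677 (SD, n = 11) after SHAM, and with it as a term the log2 fold change of BLVRA went to -0.025, that of HMOX2 to 0.022, that of FTL, the ferritin light chain, from 0.11 to 0.058 and that of SLC7A11 from -0.14 to -0.075. The score rests on 3 tested markers that did not move alike. All 3 were on the higher side in BDL over both sexes (0.144 to 0.461). Their log2 fold changes ran from -0.871 to 0.882 in males, and their estimates with body weight from -0.46 to 0.70.

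Glutathione enzymes were split, with 5 of 8 tested members on the higher side (median log2 fold change 0.036). GSS, glutathione synthetase, ran from 21.0 to 28.9 CPM in BDL (median 23.5) and from 19.4 to 24.5 in SHAM animals (median 22.3). The most extreme value was a BDL animal above all SHAM animals, and the log2 fold change was 0.065 ± 0.059 (edgeR adjusted p = 0.890). GSR, which reduces oxidised glutathione, was at -0.032 ± 0.061, GPX4, the selenoenzyme that reduces lipid peroxides, at 0.039 ± 0.055, and GSTO1, an omega-class glutathione transferase, at 0.035 ± 0.14.

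GSTM3, a mu-class glutathione transferase (chromosome 4, 110330027 to 110332957), varied far more between animals than any other member. In BDL females it stood at 53.6, 46.6, 41.0, 8.60, 25.01, 55.9 and 4.53 CPM (replicates 1, 2, 3, 4, 8, 9 and 10), and in BDL males at 31.3, 36.2, 36.7 and 22.8 CPM. In SHAM females it stood at 23.8, 44.1, 19.2, 16.5 and 31.2 CPM, and in SHAM males at 11.4, 29.6, 29.9, 33.7, 21.6 and 27.7 CPM. The lowest values belonged to BDL replicates 10 and 4 and to SHAM replicate 1, so low animals occurred in both groups and both sexes. The SD after sex and surgery was 0.904 on the log2 scale, followed by 0.436 for OSGIN1 and 0.353 for SLC7A11.

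The log2 fold change of GSTM3 was 0.31 ± 0.33 (edgeR adjusted p = 0.910), and the BDL animals surrounded the SHAM range on both sides. It was 0.15 by limma-voom, and from 0.23 without BDL replicate 9 to 0.44 without SHAM replicate 6. Mu-class transferases are close copies of each other, so reads may have been shared or discarded between them.

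Peroxiredoxins, most of which remove hydrogen peroxide with the help of thioredoxin, differed in how much they varied between animals, with an SD after sex and surgery from 0.0978 for PRDX6 to 0.173 for PRDX2 on the log2 scale. With TXN2, TXNRD1 and SRXN1 they form a role of 9 tested genes, of which 7 had a positive estimate (median log2 fold change 0.033), and all 9 intervals lay inside 1.25-fold. PRDX5, found in mitochondria and peroxisomes, ran from 198 to 320 CPM in BDL (median 259) and from 196 to 268 in SHAM animals (median 244). Of 11 BDL animals, 8 lay above the mean of SHAM, with a log2 fold change of 0.096 ± 0.069 (edgeR adjusted p = 0.881). PRDX2, which is abundant in neurons and red blood cells, ran from 217 to 336 CPM in BDL (median 252) and from 188 to 293 in SHAM animals (median 250), a log2 fold change of 0.059 ± 0.071 (edgeR adjusted p = 0.918), and 0.022 without BDL replicate 8. PRDX1, another cytosolic form, ran from 203 to 277 and from 201 to 268 CPM (medians 248 and 234), at 0.040 ± 0.060 (edgeR adjusted p = 0.933).

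The other members of that role stood nearer to 0. PRDX3 of the mitochondria was at -0.022 ± 0.049, PRDX4 of the endoplasmic reticulum at 0.033 ± 0.061, PRDX6, which also has phospholipase activity, at 0.0082 ± 0.047, and TXN2, the mitochondrial thioredoxin, at 0.035 ± 0.073. PRDX2 had a Pearson r of 0.126 (permutation p = 0.579, adjusted p = 0.871) and a Spearman rho of -0.0887 (p = 0.693, adjusted p = 0.943) with the blood cell score. Its r was -0.0293 without the 2 animals farthest from the median score.

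Enzymes that remove superoxide and hydrogen peroxide directly did not pass the test. SOD2, the mitochondrial superoxide dismutase, ran from 94.9 to 126 CPM in BDL (median 108) and from 106 to 127 in SHAM animals (median 116). Its 5 lowest values were BDL animals, and the log2 fold change was -0.060 ± 0.050 (edgeR adjusted p = 0.881). SOD1, the cytosolic form, ran from 220 to 301 CPM in BDL (median 251) and from 190 to 287 in SHAM animals (median 242), at 0.049 ± 0.062 (edgeR adjusted p = 0.923). CAT, catalase of the peroxisome, ran from 97.7 to 142 CPM in BDL (median 121) and from 98.4 to 150 in SHAM animals (median 118), at 0.049 ± 0.059 (edgeR adjusted p = 0.918).

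Of the iron genes, the ferritin light chain was on the higher side and the importer and exporter on the lower side. FTL (chromosome 6, 54231121 to 54232756), which with FTH1 forms the iron storage shell, ran from 517 to 721 CPM in BDL (median 648) and from 424 to 789 in SHAM animals (median 604). Of 11 BDL animals, 10 lay above the mean of SHAM, but both the lowest and the highest value were SHAM animals, FTL has close copies whose reads may have been shared, and the log2 fold change was 0.11 ± 0.078 (edgeR adjusted p = 0.881), and 0.073 without SHAM replicate 1. TFRC, the transferrin receptor that brings iron into cells, ran from 88.9 to 132 CPM in BDL (median 117) and from 101.3 to 142 in SHAM animals (median 123). Its log2 fold change was -0.064 ± 0.063 (edgeR adjusted p = 0.895), and -0.018 without BDL replicate 5. SLC40A1, ferroportin, which exports iron, ran from 30.3 to 39.9 CPM in BDL (median 35.1) and from 31.8 to 48.8 in SHAM animals (median 35.1). Of 11 BDL animals, 9 lay below the mean of SHAM while the medians were alike, and the log2 fold change was -0.11 ± 0.069 (edgeR adjusted p = 0.881), and -0.068 without SHAM replicate 4.

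FTL was also set against the cell type scores. With the microglia and macrophage score it had a Pearson r of 0.591 (permutation p = 0.00355, adjusted p = 0.14) and a Spearman rho of 0.448 (p = 0.0387, adjusted p = 0.55), which did not pass. Without the 2 animals farthest from the median score, r was 0.511, and it was 0.291 among BDL and 0.77 among SHAM animals. With the cerebellar neuron score FTL had r = -0.537 (permutation p = 0.01, adjusted p = 0.247) and rho = -0.598 (p = 0.00341, adjusted p = 0.169), and r was -0.612 without 2 animals. On residuals after sex and surgery that r was -0.639 (adjusted permutation p = 0.065), and rho passed (adjusted p = 0.00496). FTL passed with neither coefficient for any of the 8 scores before residuals were taken. The microglia score was 4.25 ± 0.302 (SD, n = 11) after BDL and 4.22 ± 0.349 (SD, n = 11) after SHAM. MT3, the brain metallothionein, which binds zinc and copper, ran from 355 to 645 CPM in BDL (median 418) and from 298 to 524 in SHAM animals (median 404). Of 11 BDL animals, 8 lay above the mean of SHAM, with a log2 fold change of 0.14 ± 0.10 (edgeR adjusted p = 0.881), and 0.074 without BDL replicate 8.

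The wider pathway lists held 121 further genes, of which 104 were matched to a row and 95 were tested. None passed edgeR's test, 49 were on the higher and 46 on the lower side, and 7 had an unadjusted p under 0.05, where 4.96% of all genes did and 50.3% of all genes were on the higher side. Of 18 tested genes of iron sensing and traffic, 10 were on the higher side and 3 had an unadjusted p under 0.05, beside 50.3% and 4.96% of all genes. STEAP3, the endosomal reductase that prepares iron delivered by transferrin for export to the cytosol (chromosome 15, 24736556 to 24785376), ran from 6.18 to 18.1 CPM in BDL (median 10.4) and from 11.12 to 22.7 in SHAM animals (median 16.6). Of 11 BDL animals, 10 lay below the mean of SHAM, 6 BDL animals lay below the whole SHAM range, and the log2 fold change was -0.55 ± 0.16 (unadjusted p = 0.00201, edgeR adjusted p = 0.881). SLC39A14, a zinc, manganese and iron importer, lay under the mean of SHAM in 11 of 11 BDL animals (-0.11 ± 0.041, unadjusted p = 0.0142, edgeR adjusted p = 0.881). NCOA4, the receptor that sends ferritin to be broken down, lay below it in 10 of 11 (-0.11 ± 0.052, unadjusted p = 0.0370).

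The other pathway lists gave isolated genes. Of 8 genes that supply NADPH, 4 were on each side, with NNT, the mitochondrial transhydrogenase, at -0.12 ± 0.050 (unadjusted p = 0.0223). Of 15 genes of heme synthesis and transport, 7 were on the higher side. Of 17 further thioredoxin and oxidoreductase genes, 11 were on the higher side, with AIFM2, a coenzyme Q reductase that protects against ferroptosis, at 0.21 ± 0.088 (unadjusted p = 0.0247) and over the mean of SHAM in 10 of 11 BDL animals. Of 19 further glutathione enzymes, 10 were on the higher side, with GSTK1, a mitochondrial and peroxisomal transferase, at 0.17 ± 0.082 (unadjusted p = 0.0447). NNT, AIFM2 and GSTK1 each had an edgeR adjusted p of 0.881.

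Among NRF2 partners and control genes, 4 of 11 were on the higher side, and those with the smallest p were DPP3 at -0.071 ± 0.048 and BTRC at -0.047 ± 0.050. Of the genes for conjugation, oxidation and transport of bilirubin, 9 of 15 were matched to a row and 5 were tested, 2 of them on the higher side. SLCO1A2, an organic anion transporter, was at 0.18 ± 0.11 and AHR, a receptor that can bind bilirubin, at -0.10 ± 0.13. Of the metallothionein and zinc genes, MTF1, the metal-sensing transcription factor, was at -0.055 ± 0.12 and SLC30A1, a zinc exporter, at 0.0061 ± 0.077.

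The members were also compared with each other across animals, with surgery and sex pooled. Over 465 pairs of members, 14 pairs passed with both Pearson r and Spearman rho (adjusted permutation p under 0.05 for each), 11 of them positive and 3 negative. Pairs of genes outside the members were not tested, so no share over all genes stands beside this count. Whether the members correlate more than other genes is therefore not known. PRDX2, PRDX5, GPX4, HMOX2 and BLVRA held 8 of the positive pairs among them. PRDX2 and PRDX5 had r = 0.877 (adjusted permutation p = 0.000664) and rho = 0.775 (adjusted p = 0.00279), with r = 0.882 within BDL, 0.893 within SHAM and 0.781 without the 2 animals farthest from the median of PRDX2. GPX4 and PRDX5 had r = 0.871 and rho = 0.764, and r was 0.778 without the 2 animals farthest from the median of GPX4. BLVRA and PRDX5 had r = 0.839 and rho = 0.810 (r = 0.715 without 2 animals), and GPX4 and HMOX2 r = 0.814 and rho = 0.764 (r = 0.715 without 2 animals). Animals with a high level of 1 gene of these pairs had a high level of the other, and r was positive within each surgery group. All 5 ran against the astrocyte and Bergmann glia score, with r from -0.67 for PRDX5 to -0.495 for PRDX2 and rho from -0.692 for PRDX5 to -0.355 for PRDX2. Within BDL r ran from -0.831 for BLVRA to -0.634 for PRDX2. Within SHAM it was weaker, from -0.299 for PRDX5 to -0.0622 for GPX4, and the difference between the groups was not tested. With both groups pooled, PRDX5 had an adjusted permutation p of 0.0711 for r and 0.0438 for rho, and r was -0.529 without BDL replicates 2 and 4. None of the 5 passed with both coefficients, and the part of that score in these pairs was not tested.

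All 3 negative pairs involved SLC7A11, which ran with the astrocyte score at r = 0.772. It had r = -0.81 and rho = -0.857 with HMOX2, r = -0.81 and rho = -0.771 with GPX4, and r = -0.773 and rho = -0.73 with PRDX5. Without the 2 animals farthest from the median, these r values were -0.865, -0.768 and -0.71. Within BDL they were -0.884, -0.857 and -0.744, and within SHAM -0.695, -0.827 and -0.873. SLC7A11 and TXNRD1 stood on the same side, at r = 0.677 and rho = 0.654. The level of NFE2L2 itself did not pass with any of its tested targets, with r = -0.462 and rho = -0.38 for NQO1 (adjusted permutation p = 0.142 and 0.337) and r = -0.413 without 2 animals. It passed with TFRC, at r = 0.603 and rho = 0.675 (r = 0.558 without 2 animals).

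**Figure D3:**
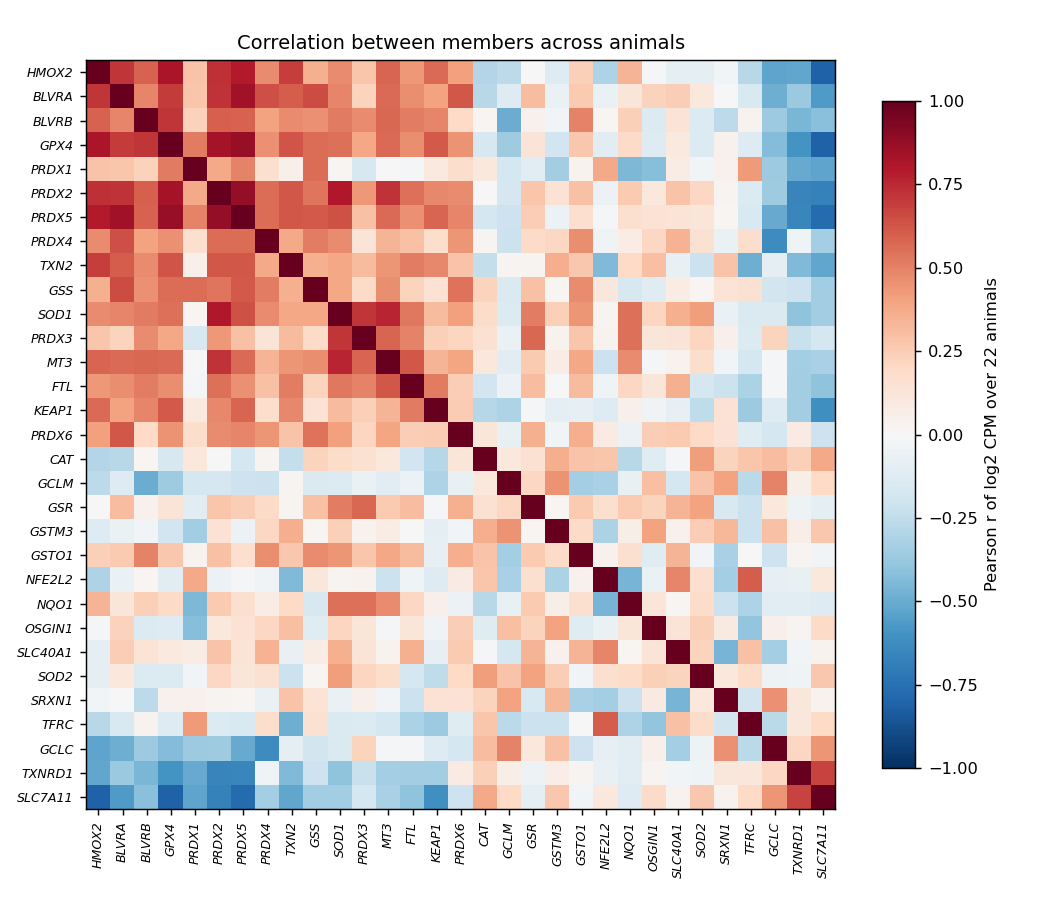
Pearson r of log2 CPM over the 22 animals for every pair of the 31 tested members, red for positive and blue for negative values. PRDX2, PRDX5, GPX4, HMOX2 and BLVRA form a red block, and SLC7A11 and TXNRD1 at the lower edge are blue against it.

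Of 248 relations between a member and a cell type marker score, 2 passed with both coefficients. Genes outside the members were not set against the scores, so no share over all genes is given. GCLC (chromosome 7, 27209565 to 27253535) followed the oligodendrocyte and myelin score, with r = 0.803 and rho = 0.804 over 22 animals (permutation p = 1e-05 for each, the smallest that 100000 resamples can give, adjusted p = 0.00248). Without the 2 animals farthest from the median score r was 0.862, and it was 0.877 within BDL and 0.650 within SHAM. With that score as a term, the log2 fold change of GCLC between the surgeries went from 0.037 to -0.0089.

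SLC7A11 (chromosome 8, 88608083 to 88690589) followed the astrocyte and Bergmann glia score, with r = 0.772 (adjusted permutation p = 0.00372) and rho = 0.712 (adjusted p = 0.036). Within BDL r was 0.851 and within SHAM 0.341, and the difference between these was not tested. Without BDL replicates 2 and 4, the animals with the lowest astrocyte scores, r was 0.626. The astrocyte score was 7.77 ± 0.291 (SD, n = 11) after BDL and 7.89 ± 0.165 (SD, n = 11) after SHAM, so it was lower where SLC7A11 was lower, and its part in the SLC7A11 values was not tested.

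**Figure D4:**
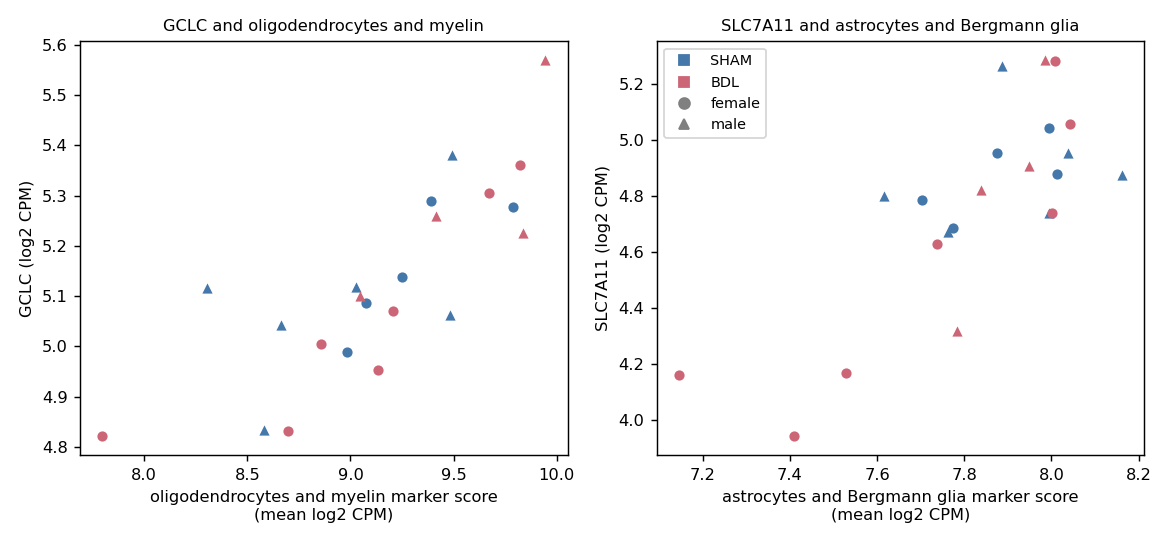
Log2 CPM of GCLC against the oligodendrocyte and myelin score (left) and of SLC7A11 against the astrocyte and Bergmann glia score (right), 1 point per animal, coloured by surgery and shaped by sex. Both rise with their score (r = 0.803 and 0.772), and the 4 animals lowest in SLC7A11 are BDL.

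Sex was the other factor in the labels. None of the 31 members passed edgeR's test between females and males, where 0.06% of all genes passed. CAT alone of the members had an unadjusted p under 0.05, which 5.95% of all genes reached. CAT (chromosome 2, 26493664 to 26533881) ran from 97.7 to 139 CPM in the 12 females (median 116) and from 118 to 150 CPM in the 10 males (median 128). The sexes overlapped, and the log2 difference of females from males was -0.19 ± 0.060 (unadjusted p = 0.00333, edgeR adjusted p = 0.582). The members next in p were NFE2L2 at -0.072 ± 0.048, PRDX3 at -0.062 ± 0.049 and KEAP1 at 0.048 ± 0.039.

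The interaction asks whether the difference between BDL and SHAM is the same in both sexes, and no member passed, as was the case for 0% of all genes. GSTO1 and SRXN1 had an unadjusted p under 0.05, a mark reached by 4.6% of all genes. The same interaction (log2 fold change of BDL in females minus that in males) was taken for cell type markers, none of them passing. It was negative in 7 of 7 myelin markers (median -0.80, 2 with an unadjusted p under 0.05) and 8 of 8 microglia markers (median -0.46, 1 at that mark). Positive were 5 of 5 choroid plexus markers (median 2.08, 4 at that mark), 4 of 4 liver markers (median 0.24, 1) and 2 of 3 blood cell markers (median 1.76, 2). Other lists were mixed, with 5 of 8 neuron, 4 of 6 astrocyte and 3 of 6 endothelial markers negative and 0 at that mark. Their part in the member values below was not tested. GSTO1 (chromosome 14, 115206434 to 115216624) ran from 3.08 to 5.49 CPM in BDL females (median 4.74) and from 2.94 to 3.82 in SHAM females (median 3.50). In males the order was the other way, from 3.18 to 3.92 in BDL (median 3.66) and from 3.19 to 5.47 in SHAM animals (median 5.15). The log2 fold change was 0.40 ± 0.15 in females and -0.41 ± 0.17 in males, and their difference was 0.80 ± 0.23 (unadjusted p = 0.00173, edgeR adjusted p = 0.917).

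SRXN1 stood the other way round. It was at -0.16 ± 0.10 in females and 0.20 ± 0.11 in males, a difference of -0.35 ± 0.15 (unadjusted p = 0.0285, edgeR adjusted p = 0.917). The 4 groups of sex and surgery overlapped for SRXN1, from 58.0 to 77.1 CPM in BDL females, 68.1 to 81.3 in SHAM females, 60.5 to 95.6 in BDL males and 51.3 to 76.2 in SHAM males. GCLC, at -0.30 ± 0.15, which follows the myelin score at r = 0.803, and PRDX4, at 0.20 ± 0.12, came next in p.

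**Figure D5:**
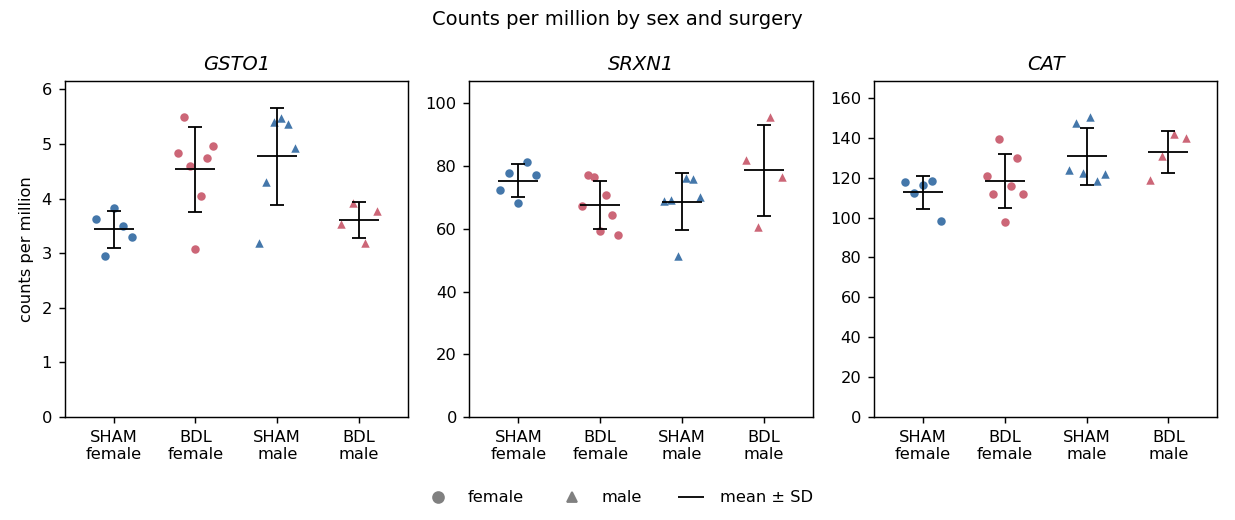
CPM (vertical axes, starting at 0) of GSTO1, SRXN1 and CAT by sex and surgery, 1 point per animal with the mean ± SD. The GSTO1 medians are 4.74 in BDL and 3.50 in SHAM females, and 3.66 in BDL and 5.15 in SHAM males, and the ranges overlap within each sex.

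Body weight, which the labels give without a unit or an age at weighing, was tested beside sex and surgery. No member passed, as was the case for 0% of all genes, and 7.39% of all genes had an unadjusted p under 0.05. SLC7A11 was the 1 member to reach that mark, with a log2 difference of 0.20 ± 0.066 per SD of weight (unadjusted p = 0.00553, edgeR adjusted p = 0.494). Astrocyte and Bergmann glia markers were positive with weight in 6 of 6 (median 0.094, 1 with an unadjusted p under 0.05), microglia markers in 8 of 8 (median 0.14, 3 with an unadjusted p under 0.05), and choroid plexus markers negative in 5 of 5 (median -0.59, 3 with an unadjusted p under 0.05). Of 3 blood cell markers, 2 were negative and 1 positive with weight (median -0.44, 2 with an unadjusted p under 0.05). None passed, and their part in the SLC7A11 value was not tested. TXNRD1, at 0.044 ± 0.025, MT3, at 0.089 ± 0.054, and TXN2, at -0.050 ± 0.039, came next.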

How the data were processed

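Cerebellar RNA of 22 piglets (11 BDL, 11 SHAM) was sequenced as 150 bp read pairs, per the labels' protocols. The authors deposited 1 raw count per Ensembl gene and animal. Trim Galore, HISAT2, HTSeq and DESeq2 and the build Sscrofa11.1 are named in the submitters' processing notes; the sources used here give neither versions nor a strand setting, so overlapping antisense genes cannot be told apart. The 5 lines of no gene (29.9% to 34.6% of reads) were left out. Of 31907 identifiers, 15029 had a symbol. Positions were taken by symbol from RefSeq's Sscrofa11.1 gene table. No transcript lengths were used, so levels are not compared between genes.

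Genes were kept by filterByExpr (minimum count 10, minimum total 15; 14994 genes), scaled by TMM and tested across all genes in edgeR 4.0.16 (R 4.3.3), quasi-likelihood, robust, on sex and surgery, with 4 groups for the interaction. Scores and correlations used log2 CPM with a prior count of 2 and 100000 permutations, two-sided, adjusted over each family. DESeq2 1.42.0 and limma 3.58.1 were alternatives. The fit was tested on simulated data. Members and lists were chosen with earlier results of these data known. All members are described; other genes were named by smallest p in their list, and 1 gene so chosen is not reported here. The labels pair no animals, and the tests treated the animals as independent. The edgeR p-values set a difference against the spread between these animals. Litter is not given, so that independence could not be checked.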

Additional observations from a re-analysis of the deposited data

Results flagged for a closer look

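The difference between BDL and SHAM differed between the sexes, at an unadjusted p under 0.05, for 2 of the 31 tested members: GSTO1, by 0.80 on the log2 scale (females minus males), and SRXN1, by -0.35. Neither passed over all genes (edgeR adjusted p = 0.917 for each).

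Within the 4 groups of sex and surgery, a sample far from the others was looked for in the 8 members named for sex and the interaction, which made 32 combinations; chance alone flags about 1 in 20. Catalase (CAT) was low in SHAM replicate 11, at 98.4 CPM, among SHAM females. NFE2L2 was high in SHAM replicate 7, at 93.0 CPM, among SHAM females. PRDX3 was low in SHAM replicate 1, at 117 CPM, and SRXN1 low in SHAM replicate 4, at 51.3 CPM, both among SHAM males. PRDX4 was high in BDL replicate 2, at 59.4 CPM, among BDL females. SHAM replicate 1 was also the library with the fewest counts in genes (14811464). Of all animals it was lowest for KEAP1, HMOX2, BLVRB, GPX4, TXN2, PRDX2, PRDX3, PRDX5, SOD1 and FTL, and highest for TFRC and TXNRD1. Its low values lie in the SHAM means of those genes.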

How the results depend on the processing

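The 31 tested members were refitted under 31 alternatives (22 of them leaving out 1 animal each), which gave 961 log2 fold changes of BDL against SHAM. Of these, 921 kept their direction, none passed edgeR's or the alternative's test, and the lowest adjusted p was 0.712. The other 40 belonged to 9 members, all with a fold change near 0, and 22 members never turned. With the blood cell score as a term, BLVRA was at -0.0252, GSTO1 at -0.0718, NFE2L2 at 0.00403, PRDX6 at -0.0113, TXN2 at -0.0224 and GCLM at 0.00519. With the oligodendrocyte and myelin score as a term, GCLC was at -0.00889 and SRXN1 at -0.00691. SRXN1 was at -0.00421 by limma-voom, -0.00114 with no sex term and -0.00243 with body weight as a term. GCLM was at 0.000404 with no count filter. SLC30A1, a gene of the wider pathway lists and not among the 31 members, was at -0.000394 with no sex term and -0.00324 with animal number as a term. Leaving out 1 animal at a time, the range was -0.0308 to 0.042 for BLVRA, -0.0202 to 0.0648 for GCLC, -0.0186 to 0.0254 for GCLM and -0.0156 to 0.0937 for GSTO1. It was -0.0295 to 0.0165 for NFE2L2, -0.00882 to 0.0237 for PRDX6, -0.0572 to 0.0319 for SRXN1 and -0.0388 to 0.000455 for TXNRD1. For the pathway genes MTF1 and SLC30A1 it was -0.0977 to 0.026 and -0.0301 to 0.0378. The cause was not tested. Leaving out 1 animal moved the values by over 1.5 times in other members too, among them NQO1 (-0.119 to -0.034), SLC7A11 (-0.218 to -0.0859) and SOD1 (lowest 0.0197).

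Over all genes, DESeq2 called 1 gene between BDL and SHAM, where edgeR called 0 (744 genes at an unadjusted p under 0.05 by edgeR and 769 by DESeq2). Between the sexes edgeR called 9 genes, 31 with no count filter, 23 by DESeq2, and 7 to 26 with 1 animal left out. For body weight it called 0, and 0 to 9 with 1 animal left out (9 without SHAM replicate 1, 3 without BDL replicate 4). Correlations on residuals after sex and surgery, chosen after seeing the data, gave 23 pairs of members in place of 14, with 13 pairs shared, and NFE2L2 with TFRC, at r = 0.562, no longer passed. Animals were not paired across groups. No paired analysis was possible because replicate numbers follow the order of deposition. The depth limits OSGIN1 most, at 7 to 28 counts per library.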
